A study of Saccharomyces cerevisiae with 24 samples.

Results

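Wild type budding yeast (Saccharomyces cerevisiae, strain BY4741) was taken through the adapted protocol of a low dose of 0.1 mM hydrogen peroxide for 45 min followed by a high dose of 0.4 mM for 1 h, and its response was read on 4 of the 24 arrays in the series. These were the arrays whose titles name both doses, and each gave a ratio of treated to untreated RNA for 6219 of the 6251 open reading frames (ORFs) listed. The other 20 arrays formed 5 further groups of 4, namely wild type cells given the low dose alone (pretreated), wild type cells given the high dose alone (acute), and cells without MGA2, ROX1 or YAP1 given the low dose. Per the methods, each replicate began from a single colony grown in rich medium, and the culture was divided so that its other portion received a sham dose of phosphate buffer and served as the untreated control. BY4741 is a haploid of mating type a that lacks working HIS3, LEU2, MET17 (also called MET15) and URA3, so every sample, untreated cells included, shares these deletions and was grown in medium that supplies amino acids and bases. The design calls the arrays biological replicates, and no agent other than peroxide and buffer is named.

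Hydrogen peroxide oxidizes protein thiols, lipids and DNA bases. Yeast removes it with catalases, with peroxiredoxins that are recycled by thioredoxin, and with glutathione-linked peroxidases, and the transcription factors Yap1, Skn7, Msn2 and Msn4 are known to switch on many of these genes. A mild dose given first lets cells survive a later dose that would otherwise kill many of them, which is called adaptation. The arrays ask which transcripts differ from untreated cells once the high dose has acted on cells already exposed to the low dose.

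Polyadenylated RNA of treated and untreated cells was labelled with different dyes and hybridized to the same array. On replicates 1 and 2 the treated RNA was Cy5 and on replicates 3 and 4 it was Cy3. Values are log2 ratios of treated to untreated intensity, so that 1 is a doubling and 0 is no difference. The 4 sets of deposited ratios had the same distribution, and sorted ratios differed by at most 0.00579 between arrays. Each ratio thus states a gene's rank on that array: the highest was 3.97 and the lowest -2.03 on every array, and a gene ranked first on several arrays has the same value there, so that genes at the extremes show less spread than they may have had. Across ORFs replicates 1 and 2 correlated at 0.96 and replicates 3 and 4 at 0.81, while pairs of opposite dye orientation correlated at -0.33 to -0.13 (Pearson's r over 6219 ORFs of shared probes, given as a description). For 4074 ORFs (65.5%) the dye component of the ratio was larger than the treatment component. A gene-specific dye term was therefore part of the model throughout. The dye component was formed from the difference between replicates 1 and 2 and replicates 3 and 4. Within the adapted group, dye thus cannot be told apart from any other difference between these pairs of arrays. Array values or list medians are given for many of the genes and lists described. A gene given by its mean alone may still differ between orientations.

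**Figure D1:**
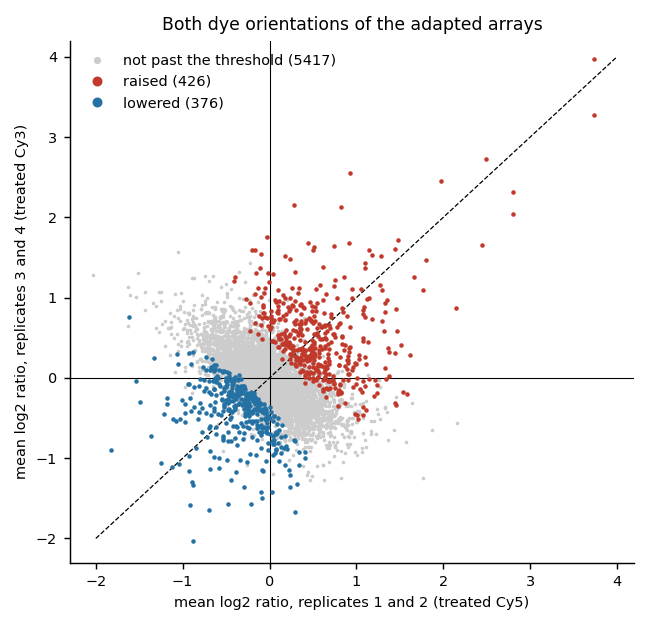
Each point is 1 of 6219 ORFs, with its mean log2 ratio on the replicates labelled with treated RNA in Cy5 (horizontal) and in Cy3 (vertical); the dashed line marks equal values. The colours mark 426 raised and 376 lowered ORFs, among them 253 whose sign changed with the array, such as MGA2 at upper left and ROX1 at lower right, and the cloud of other ORFs slopes downward, as the negative correlations of -0.33 to -0.13 describe.

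The strain markers were checked first. The genes of a cells were bright in both channels, with intensities of 2860 to 6612 for STE2, the alpha-factor receptor, and of 9650 to 17366 for MFA2, a precursor of a-factor, where the median ORF lay between 456 and 466. Genes of alpha cells were dim, at 62.1 to 132 for STE3, the a-factor receptor, and at 36.4 to 224 for MF(ALPHA)1. The alpha gene SAG1 was less dim, between 277 and 524. URA3 lay between 31.1 and 131. HIS3 and LEU2 were among the 32 ORFs without a value on these arrays, which enter no count, and MET17 was not among the ORFs listed.

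Over all ORFs the adapted protocol raised 426 (6.85% of 6219) and lowered 376 (6.05%), 802 in all, at an adjusted p under 0.05 in a limma fit of all 24 arrays (two-sided test of the group mean against 0, Benjamini-Hochberg adjustment over 6219 ORFs). Adjusted p-values and, after the ± sign, standard errors (SE) come from this fit. The median size of a call was 0.47 among raised and -0.33 among lowered ORFs, and 39 rises and 12 falls were at least a doubling or a halving. Of the 802 calls, 549 had the sign of the mean on all 4 arrays, 298 of them rises and 251 falls, and the other 253 changed sign with the array. Many ORFs on these arrays lack values in a deletion strain: 1846 were not complete on the 24 arrays, and 201 of them (10.9%) were called, 150 up and 51 down, against 13.7% of complete ORFs. Of 480 ORFs without a match in the table of gene names 17 (3.54%) were called. Without a dye term the count was 214, and without replicate 2 or 4 it was 443 or 377. In a second deposited table of 10807 single spots 731 ratios passed, a smaller share than the 12.9% of ORFs. Of these, 502 were raised and 229 lowered, a larger share of rises among the calls (68.7% against 53.1%).

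**Figure D2:**
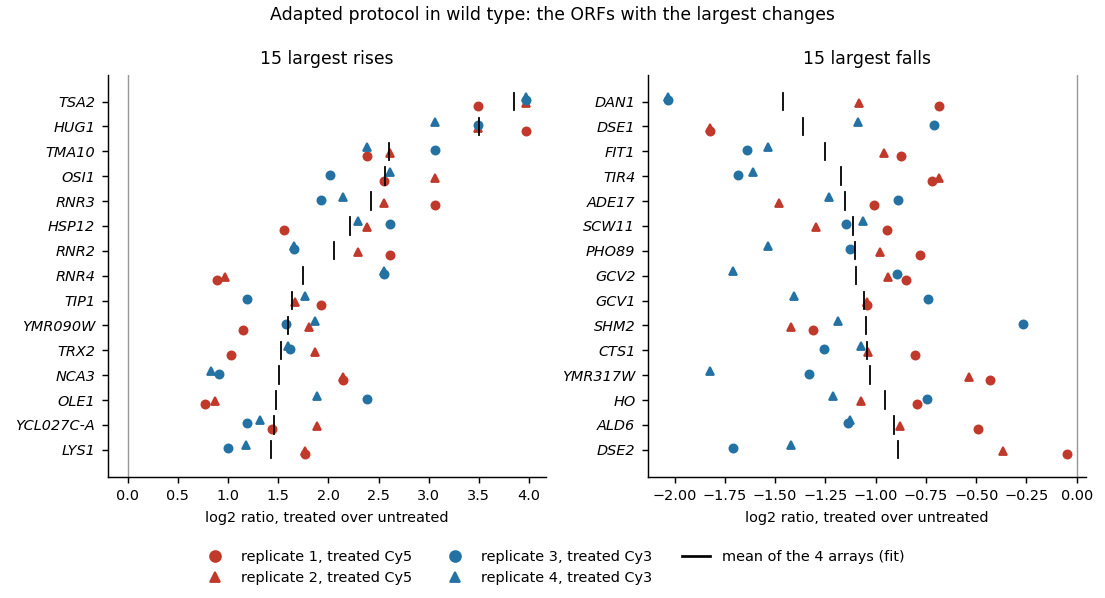
Log2 ratios of treated to untreated RNA on each adapted array for the 15 ORFs with the largest rises (left) and the 15 with the largest falls (right) among ORFs past the threshold with the same sign on 4 arrays. Red symbols are replicates 1 and 2 (treated Cy5), blue symbols replicates 3 and 4 (treated Cy3), and the black bar is the mean; TSA2 sits at the ceiling of 3.97 on 3 arrays and DAN1 at the floor of -2.03 on 2.

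The enzymes that destroy peroxide were led by the peroxiredoxins. TSA2, the stress-induced cytosolic peroxiredoxin, gave 3.50, 3.97, 3.97 and 3.97 on replicates 1 to 4, a mean of 3.85 ± 0.15 (adjusted p = 5.47e-14) or 14.5-fold. It was the highest ORF of replicates 2, 3 and 4, so its size is bounded by the ceiling. PRX1, the mitochondrial peroxiredoxin, gave 0.70, 1.49, 1.29 and 1.46 with a mean of 1.23 ± 0.13 (adjusted p = 1.56e-06), replicate 1 lying below the other arrays. AHP1, a peroxiredoxin that reduces alkyl hydroperoxides, gave 0.69, 1.93, 0.60 and 0.58, a mean of 0.95 ± 0.26 (adjusted p = 0.0312), with replicate 2 far above the rest. TSA1, the abundant cytosolic enzyme, was at 0.23, 0.80, 0.38 and 0.46, a mean of 0.47 ± 0.11 (adjusted p = 0.0068), and DOT5, the nuclear enzyme, was at 0.19 (adjusted p = 0.178). In all 4 of 5 peroxiredoxin genes rose (80.0%, against 6.85% of all ORFs), with a list median of 0.95 against -0.02 over all ORFs. Without replicate 2 or 4, AHP1 and TSA1 missed the threshold, AHP1 also without replicate 3.

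Thioredoxins recycle the peroxiredoxins. TRX2, a cytosolic thioredoxin, was at 1.02, 1.87, 1.62 and 1.60, a mean of 1.53 ± 0.18 (adjusted p = 5.71e-06), with every array above 1. TRX3, the mitochondrial thioredoxin, rose by 0.40 ± 0.099 (adjusted p = 0.00978), but not without replicate 4. The other cytosolic thioredoxin TRX1 (0.062, adjusted p = 0.697) and the reductases TRR1 (-0.063, 0.844) and TRR2 (-0.098, 0.491) did not pass. TRR1 had values of -0.59, -0.32, 0.23 and 0.43, so its sign followed the dye orientation.

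In the glutathione system, 5 of 20 genes rose and 1 fell, with a median of 0.08. GTT2, a glutathione transferase, was at 0.58, 1.13, 1.14 and 1.37 and had a mean of 1.06 ± 0.12 (adjusted p = 3.11e-06), and GTT1, a glutathione transferase of the endoplasmic reticulum, was at 1.05, 1.32, 0.90 and 0.57 and had a mean of 0.96 ± 0.15 (adjusted p = 0.000186). ECM4, a transferase of the omega class that stood outside this list, rose by 1.16 ± 0.17 (adjusted p = 0.000129). Each of these transferase genes was above 0.5 on all 4 arrays. HYR1, the peroxidase that passes the peroxide signal to Yap1, rose by 0.32 and the glutaredoxin GRX1 by 0.33, and neither passed without replicate 2, 3 or 4. GSH1, which makes the first step of glutathione synthesis, was the member that fell. It gave -0.84, -0.67, -0.00088 and -0.047, a mean of -0.39 ± 0.091 (adjusted p = 0.00665), near 0 on the Cy3-treated arrays, and it was not called without replicate 1 or 2. The glutathione peroxidase GPX2 (-0.54, adjusted p = 0.0674) did not pass, at -1.33, -0.62, -0.30 and 0.079 by array, and the glutathione reductase GLR1 was at -0.050 (adjusted p = 0.813).

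Catalases and superoxide dismutases did not pass. CTT1, the cytosolic catalase, was at -0.32, -0.27, 0.14 and 0.065, a mean of -0.096 (adjusted p = 0.609), and CTA1, the peroxisomal one, at -0.23 (0.17). The arrays lay on both sides of 0 for each of them. SOD1 was at 0.34 (0.113), SOD2 at 0.032 (0.878) and CCP1, the mitochondrial cytochrome c peroxidase, at 0.15 (0.304). Of the 11 genes grouped here 2 rose (18.2%, against 6.85% of all ORFs). SRX1, the sulfiredoxin that restores overoxidized peroxiredoxin, varied widely at 0.35, 0.91, 0.16 and 1.45 with a mean of 0.72 ± 0.22 (adjusted p = 0.0455). MXR1, which repairs oxidized methionine, was at -0.11, -0.21, 1.49 and 1.13, a mean of 0.57 ± 0.18 (adjusted p = 0.0394), raised only where the treated RNA was Cy3. Neither was called without replicate 3 or 4, nor SRX1 without replicate 2.

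Reducing power for both systems comes as NADPH. The enzymes of the main oxidative branch, ZWF1 at 0.34 (adjusted p = 0.096) and GND1 at 0.24 (0.0525), did not pass, while 2 minor isozymes of the pentose phosphate pathway did. GND2, the second gluconate dehydrogenase, was at 0.71, 1.13, 0.26 and 0.48 and had a mean of 0.64 ± 0.12 (adjusted p = 0.00101). NQM1, the second transaldolase, was at 0.32, 0.71, 0.79 and 0.97 and had a mean of 0.70 ± 0.12 (adjusted p = 0.000475). ALD6, the cytosolic acetaldehyde dehydrogenase that also yields NADPH, fell on every array, at -0.49, -0.88, -1.14 and -1.13, a mean of -0.91 ± 0.098 (adjusted p = 1.92e-06). With IDP1, whose call was lost whenever 1 adapted array was left out, these made 3 rises and 1 fall among 16 genes. The shares were 18.8% and 6.25%, against 6.85% and 6.05% of all ORFs.

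**Figure D3:**
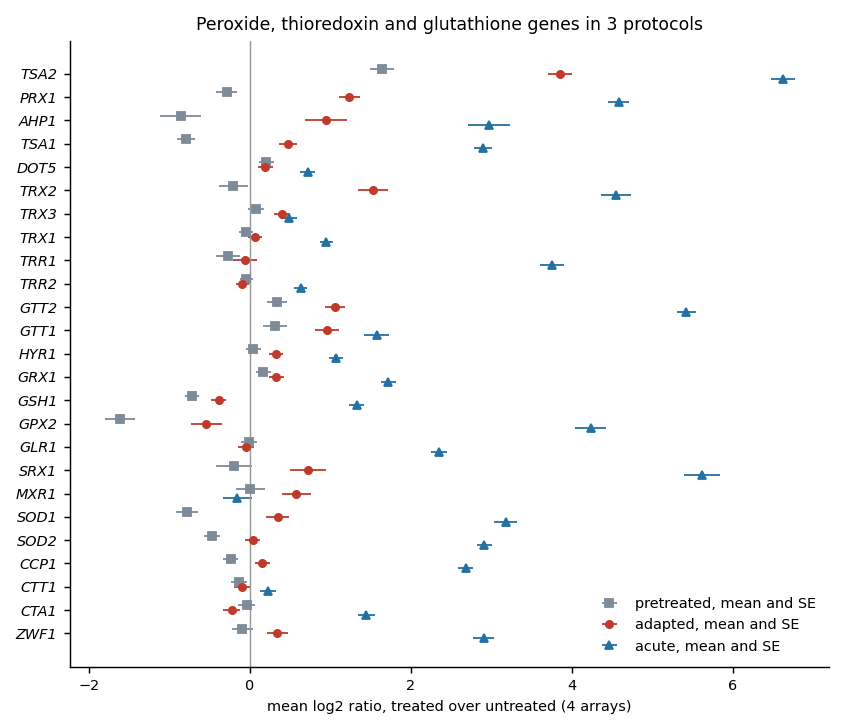
Mean log2 ratio with its SE for 25 peroxide, thioredoxin, glutathione and NADPH genes after pretreatment (squares), the adapted protocol (circles) and acute treatment (triangles), 4 arrays each. TSA2 is highest in all 3 protocols, and in the adapted protocol CTT1 is at -0.096, SOD2 at 0.032 and TRR1 at -0.063.

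Ribonucleotide reductase makes the deoxyribonucleotides needed for DNA repair and replication, and its genes are a standard readout of DNA damage signalling. All 4 subunit genes rose. RNR3, the damage-induced large subunit, was at 3.06, 2.55, 1.93 and 2.14, a mean of 2.42 ± 0.20 (adjusted p = 3.22e-08). RNR2, a small subunit, was at 2.61, 2.29, 1.66 and 1.66 with a mean of 2.05 ± 0.19 (adjusted p = 2.48e-07), and RNR4, the partner small subunit, was at 0.89, 0.97, 2.55 and 2.55 with a mean of 1.74 ± 0.21 (adjusted p = 6.84e-06). RNR2 and RNR3 were higher on the Cy5-treated arrays and RNR4 on the Cy3-treated ones, with no overlap between orientations, but no array was below 0.8 for any of the 3. RNR1, the large subunit of normal growth, rose less, by 0.59 ± 0.13 (adjusted p = 0.00351). HUG1, a small inhibitor of the enzyme that is made after DNA damage, was at 3.97, 3.50, 3.50 and 3.06, a mean of 3.51 ± 0.27 (adjusted p = 1.33e-08), second to TSA2 among raised ORFs of constant sign. SML1, the other protein inhibitor, did not pass (0.095, adjusted p = 0.454).

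Upstream of these genes DUN1, the checkpoint kinase that relieves their repression, was at 0.37, 0.33, 0.35 and 0.78, a mean of 0.46 ± 0.094 (adjusted p = 0.00224), and RFX1, their repressor, rose by 0.30 but missed the threshold whenever 1 adapted array was left out. Several repair genes rose too. RAD54, a DNA translocase of homologous recombination, was at -0.22, 0.011, 1.02 and 0.99, a mean of 0.45 ± 0.12 (adjusted p = 0.0142), a call that was lost without replicate 3 or 4. MAG1, a glycosylase that removes damaged bases, rose by 0.85 ± 0.19 (adjusted p = 0.00658), PLM2, a forkhead-domain protein of the damage response, by 0.88 ± 0.12 (adjusted p = 3.87e-05), and the polyubiquitin gene UBI4 by 0.84 ± 0.19 (adjusted p = 0.00539). UBI4 was at 0.070, 0.28, 1.60 and 1.43, so its rise was carried mainly by the Cy3-treated arrays, and it missed the threshold without replicate 3 or 4, as MAG1 did without replicate 4. In total 13 of the 27 damage genes rose (48.1%, against 6.85% of all ORFs) and none fell (median 0.20).

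Of 45 general stress genes, 25 rose (55.6%, against 6.85% of all ORFs) and 2 fell (4.44%, against 6.05%), with a median of 0.43. HSP12, a small membrane-protecting protein, was at 1.56, 2.38, 2.61 and 2.29, a mean of 2.21 ± 0.15 (adjusted p = 3.29e-09), and TMA10, a ribosome-associated stress protein, at 2.38, 2.61, 3.06 and 2.38, a mean of 2.61 ± 0.21 (adjusted p = 3.13e-08). All arrays were above 1.5 for both. DDR2 rose by 1.16 ± 0.14 (adjusted p = 6.84e-06) and DDR48, also named for DNA damage, by 0.85 ± 0.095 (adjusted p = 2.69e-06). UBC5, a ubiquitin-conjugating enzyme of the stress response, rose by 0.97 ± 0.12 (adjusted p = 1.14e-05), the hexokinase HXK1 by 0.93 ± 0.23 (adjusted p = 0.00858) and DCS1, a scavenger decapping enzyme, by 0.69 ± 0.081 (adjusted p = 4.55e-06). The call for HXK1 was lost without replicate 2 and that for DDR2 without a dye term. Many of these genes are known targets of Msn2 and Msn4, and 12 of the 45 passed without a dye term.

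The largest rises among chaperone genes were in the small heat shock proteins. HSP26 was at 0.89, 1.46, 1.55 and 1.52, a mean of 1.36 ± 0.20 (adjusted p = 6.31e-05), and HSP42, the other small heat shock protein that gathers unfolded proteins, at 0.96, 1.23, 1.30 and 1.55, a mean of 1.26 ± 0.14 (adjusted p = 2.15e-06). HSP31, a methylglyoxalase and chaperone, rose by 1.03 ± 0.14 (adjusted p = 1.96e-05), and the plasma membrane protein HSP30 by 0.94 ± 0.24 (adjusted p = 0.0112). Of the large chaperones SSA4, an inducible Hsp70, rose by 0.55 and HSP78, the mitochondrial disaggregase, by 0.45. The calls for HSP30 and SSA4 were lost without replicate 3 or 4, that of SSA4 also without replicate 2. Without a dye term HSP30, SSA4 and HSP78 did not pass. HSP104, the cytosolic disaggregase, did not pass (0.18, adjusted p = 0.452), and its arrays gave -1.003, -0.74, 1.40 and 1.08, opposed by dye orientation. KAR2, the chaperone of the endoplasmic reticulum, fell by 0.64 ± 0.12 (SE, adjusted p = 0.00117), at -1.07, -0.94, -0.084 and -0.47 by array. Over 33 chaperone genes 6 rose (18.2%, against 6.85% of all ORFs) and 2 fell (6.06%, against 6.05%). Their median by array was -0.27 and -0.17 in Cy5 orientation and 0.37 and 0.47 in Cy3 orientation.

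A few genes of protein breakdown rose by small amounts. All of UMP1, the proteasome maturation factor (0.57, 0.72, 0.58 and 0.54, mean 0.60 ± 0.13, adjusted p = 0.00326), PEP4, the vacuolar protease that activates the others (0.50, 0.85, 0.46 and 0.38, mean 0.55 ± 0.093, adjusted p = 0.00036), and PRB1, vacuolar protease B (0.35, 0.69, 0.78 and 0.63, mean 0.61 ± 0.089, adjusted p = 6.93e-05), were positive on every array. ATG8, the ubiquitin-like protein of the autophagosome, was at 0.46, 0.60, 1.02 and 1.19 and had a mean of 0.82 ± 0.13 (adjusted p = 0.000116). Of 12 vacuolar hydrolase genes 6 rose and none fell, of 23 autophagy genes 3 rose (13.0%) and of 37 proteasome genes 4 rose (10.8%), where 6.85% of all ORFs did. The mean was above 0 for 34 of the 37 proteasome genes (median 0.22, highest 0.60) and for 2762 of all 6219 ORFs, but the array medians of the list were -0.14 and -0.03 in Cy5 orientation and 0.58 and 0.52 in Cy3 orientation. RPN4, the activator of proteasome genes, was at -0.024 (adjusted p = 0.897). Trehalose and glycogen genes gave 3 rises among 19 (15.8%), and TPS1, which makes the trehalose precursor, was at 0.14 (adjusted p = 0.52).

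Amino acid synthesis was split by pathway. Lysine synthesis runs from 2-oxoglutarate through homocitrate and aminoadipate, and 8 of its 10 genes rose (80.0%, against 6.85% of all ORFs). LYS20, a homocitrate synthase at the head of the pathway, was at 1.14, 1.14, 1.58 and 1.62, a mean of 1.37 ± 0.13 (adjusted p = 3.90e-07). LYS1, the final saccharopine dehydrogenase, was at 1.77, 1.77, 1.00 and 1.18, a mean of 1.43 ± 0.14 (adjusted p = 2.93e-07), and LYS9, the enzyme before it, at 0.94, 0.90, 1.69 and 1.67, a mean of 1.30 ± 0.15 (adjusted p = 2.69e-06). LYS4, homoaconitase, rose by 0.96 ± 0.11 (adjusted p = 3.77e-06), LYS2, aminoadipate reductase, by 0.74 ± 0.12 (adjusted p = 0.000233), LYS12 by 0.64 and the second homocitrate synthase LYS21 by 0.58. Every one of these genes was positive on all 4 arrays, and none lost its call when an array or the dye term was left out. LYS14, the activator of the pathway, was at 0.048 (adjusted p = 0.721). The list median was 0.85, with array medians of 0.53, 0.61, 1.00 and 0.93.

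Arginine synthesis gave 6 rises among 10 genes (60.0%, against 6.85% of all ORFs, median 0.49). ARG1, argininosuccinate synthetase, was at 1.17, 1.38, 1.27 and 1.05, a mean of 1.22 ± 0.15 (adjusted p = 2.31e-05), and CPA1, a subunit of carbamoyl phosphate synthetase, at 0.90, 0.97, 0.74 and 0.54, a mean of 0.79 ± 0.14 (adjusted p = 0.000497). ARG3, ornithine carbamoyltransferase, was at 0.37, 0.64, 1.38 and 1.81 and had a mean of 1.05 ± 0.21 (adjusted p = 0.00258). The last step, ARG4, rose by 0.73 ± 0.12 (adjusted p = 0.000183). For ARG3 and ARG4 the Cy3-treated arrays lay above the Cy5-treated ones without overlap. The general activator of amino acid genes, GCN4, was at 0.042 on the transcript level (adjusted p = 0.847). Of the 10 genes of leucine, isoleucine and valine synthesis with values none passed, and the highest was at 0.23.

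Sulfur assimilation and methionine metabolism gave 15 rises and 1 fall, GSH1, among 33 genes (median 0.27). The shares were 45.5% and 3.03%, against 6.85% and 6.05% of all ORFs. MET2, which makes O-acetylhomoserine, was at 0.89, 0.58, 1.56 and 1.73, a mean of 1.19 ± 0.18 (adjusted p = 0.000183), and SAM3, the permease for S-adenosylmethionine, at 0.85, 0.66, 1.37 and 1.07, a mean of 0.99 ± 0.18 (adjusted p = 0.000778). MET3, ATP sulfurylase, was at 0.33, 0.14, 1.73 and 1.23, a mean of 0.85 ± 0.17 (adjusted p = 0.0021), and SAM2, an S-adenosylmethionine synthetase, at 0.054, -0.12, 2.14 and 1.36, a mean of 0.86 ± 0.19 (adjusted p = 0.00424). The rises were thus larger in Cy3 orientation, and the array medians of the list were 0.06, -0.05, 0.50 and 0.38. Without replicate 3 only 5 genes of the list were raised, 8 without replicate 4 and 4 without a dye term, and SAM2 was not called without replicate 3. MET28 (0.17, -0.099, 1.37 and 1.21, mean 0.66 ± 0.14, adjusted p = 0.00283) and MET32 (0.029, -0.00023, 0.55 and 1.13, mean 0.43 ± 0.11, adjusted p = 0.0115), which bind DNA with Met4 at these genes, were higher on the same arrays, MET32 missing the threshold without replicate 4, and MET4 itself was at -0.17 (adjusted p = 0.147). MET6, methionine synthase, did not pass (0.27, adjusted p = 0.263).

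**Figure D4:**
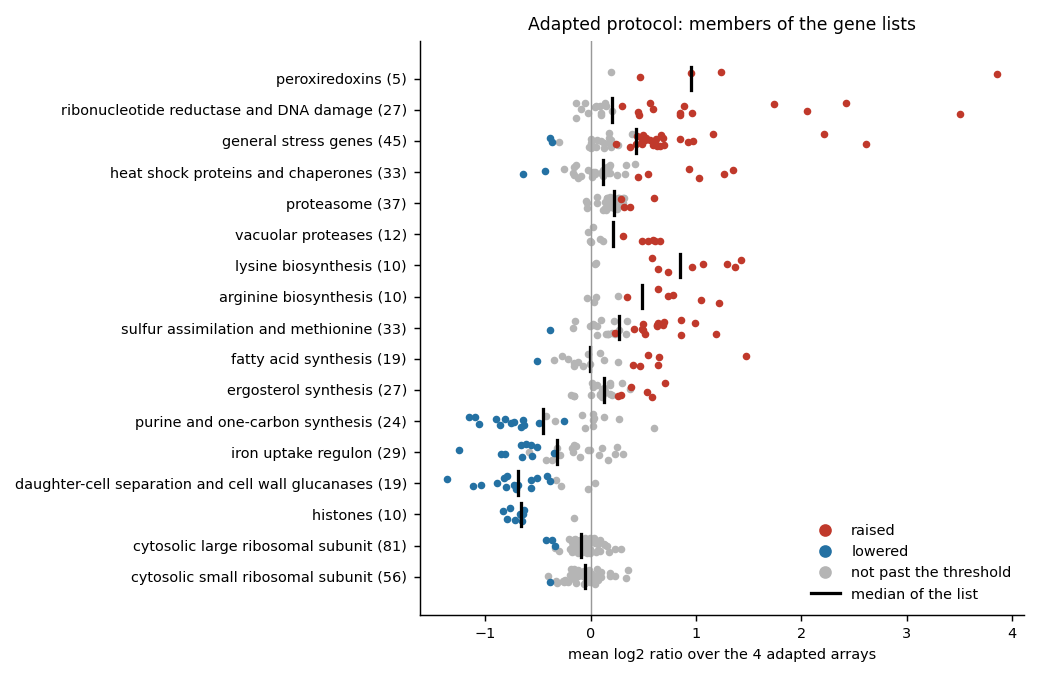
Mean log2 ratio over the 4 adapted arrays for each measured member of 17 gene lists (number of members in brackets), with the list median as a black bar; red members were raised, blue ones lowered and grey ones did not pass. The lysine list has 8 raised of 10, the daughter-cell separation list 15 lowered of 19, and the ribosomal subunit lists 0 raised and 4 lowered of 137.

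The pathway that makes purines and one-carbon units moved the other way, with 13 of 24 genes lowered, none raised, and a median of -0.45. The lowered share was 54.2%, against 6.05% of all ORFs. ADE17, which catalyses the last steps of inosine monophosphate synthesis, was at -1.01, -1.48, -0.89 and -1.23, a mean of -1.15 ± 0.25 (adjusted p = 0.00346). SHM2, the cytosolic serine hydroxymethyltransferase that feeds one-carbon units, was at -1.31, -1.42, -0.27 and -1.19, a mean of -1.05 ± 0.23 (adjusted p = 0.00378). The 3 GCV genes, for subunits of the glycine cleavage complex, were lower. GCV2 was at -0.85, -0.94, -0.89 and -1.71 (mean -1.10 ± 0.30, adjusted p = 0.017), GCV1 at -1.04, -1.04, -0.74 and -1.41 (mean -1.06 ± 0.31, adjusted p = 0.0278) and GCV3 at -0.45, -0.45, -1.06 and -1.48 (mean -0.86 ± 0.22, adjusted p = 0.011). ADE13, adenylosuccinate lyase, at -1.48, -1.51, 0.26 and -0.85, ADE2, at -1.11, -1.24, 0.15 and -0.81, and MTD1, a methylenetetrahydrofolate dehydrogenase, at -1.01, -1.22, -0.011 and -1.01, were near or above 0 on replicate 3 and well below 0 on the other arrays, and their calls were lost without replicate 1, 2 or 4. The array medians of the list were -0.48, -0.50, -0.36 and -0.83, and 18 of 24 genes were higher on replicate 3 than on replicate 4, against 51.6% of all ORFs. The count of lowered genes fell to 5 when replicate 1 was dropped, to 2 when replicate 2 was and to 1 when replicate 4 was. The count with replicate 3 dropped is not given here. Omitting the dye term left 2. GCV1 missed the threshold whenever an adapted array was left out, and GCV2 and GCV3 without replicate 2 or 4. Dropping replicates 1 to 4 in turn gave GCV1 means of -1.12, -1.12, -1.11 and -0.88, each with an SE of 0.37. The main fit had a mean of -1.06 and an SE of 0.31, so a lost call need not mean a smaller fall. ADE17 and SHM2 passed in each of these fits.

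Genes for iron uptake gave 10 falls (34.5%, against 6.05% of all ORFs) and no rise among 29 (median -0.32). FET3, the multicopper oxidase of high-affinity uptake, was at -0.69, -0.48, -1.28 and -0.96, a mean of -0.85 ± 0.15 (adjusted p = 0.000489), and its permease partner FTR1 at -0.93, -0.88, -0.39 and -0.43, a mean of -0.66 ± 0.12 (adjusted p = 0.000535). The siderophore transporter ENB1 fell by 0.81 ± 0.20 (SE, adjusted p = 0.00789), ARN1 by 0.65 and ARN2 by 0.57. FIT1, a cell wall mannoprotein that retains siderophore iron, was at -0.87, -0.96, -1.64 and -1.54, a mean of -1.25 ± 0.28 (adjusted p = 0.00602), the third-ranked fall among ORFs of constant sign. All arrays were below 0 for each of FET3, FTR1, ENB1, ARN1 and FIT1. AFT1, the iron-sensing activator of these genes, was also lower, at -0.56, -0.66, -0.11 and -0.32, a mean of -0.41 ± 0.083 (adjusted p = 0.00192), and AFT2, its relative, was at 0.12 (adjusted p = 0.445). TIS11, which degrades mRNAs when iron is short, fell by 0.56 but missed the threshold whenever 1 adapted array was left out. Without a dye term 3 of the 29 passed, and FTR1, ENB1, ARN1, FIT1 and AFT1 did not.

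Of 19 genes that act when a daughter cell separates from its mother 15 fell (78.9%, against 6.05% of all ORFs). Of these, 11 had 1 sign on 4 arrays, and the list median was -0.69. Its array medians were -0.18 and -0.37 in Cy5 orientation and -0.95 and -0.85 in Cy3 orientation. DSE1, a daughter-specific wall protein, was at -1.82, -1.82, -0.71 and -1.09, a mean of -1.36 ± 0.18 (adjusted p = 1.65e-05). SCW11, a glucanase, was at -0.94, -1.30, -1.15 and -1.07, a mean of -1.11 ± 0.10 (adjusted p = 2.18e-07), and CTS1, the chitinase that cuts the septum, at -0.81, -1.04, -1.26 and -1.07, a mean of -1.04 ± 0.12 (adjusted p = 3.59e-06). For SCW11 and CTS1 the orientations overlapped and no array was above -0.8. DSE2 (-0.051, -0.37, -1.71 and -1.42, mean -0.89 ± 0.099, adjusted p = 2.57e-06) and EGT2 (-0.11, -0.47, -1.39 and -1.33, mean -0.82 ± 0.11, adjusted p = 3.87e-05) fell mostly in Cy3 orientation and did not pass without a dye term. AMN1, an inhibitor of mitotic exit in daughters, fell by 0.80 ± 0.10 (SE, adjusted p = 1.13e-05). SWI5, an activator of several of these genes, did not pass (-0.29, adjusted p = 0.142). RNA was taken from the whole culture, so fewer cells at a cell cycle stage and less RNA per cell cannot be told apart here or for the following genes.

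Histone genes are transcribed in S phase. All 8 genes of core histones H2A, H2B, H3 and H4 fell (median -0.69). With HTZ1 9 of the 10 histone genes did (90.0%, against 6.05% of all ORFs). HHF1, for H4, was at -0.50, -0.89, -0.60 and -0.64, a mean of -0.66 ± 0.11 (adjusted p = 0.000199), HTB2, for H2B, at -0.43, -0.64, -0.90 and -0.64, a mean of -0.65 ± 0.13 (adjusted p = 0.00183), and HTA2, for H2A, at -1.08, -1.36, -0.30 and -0.60, a mean of -0.83 ± 0.20 (adjusted p = 0.00819). No array was above 0 for these, and HTA2 was not called without replicate 2 or 4. The linker histone HHO1 was at -0.16 (adjusted p = 0.439). Copies of a histone gene are nearly identical, so their probes may share signal. Among 26 genes of G1 and S phase 3 rose and 7 fell, and among 24 of G2, mitosis and early G1 6 fell. The G1 cyclin genes CLN1 (-0.26, -0.54, -0.74 and -0.75, mean -0.57 ± 0.12, adjusted p = 0.00264) and PCL1 (-0.95, -1.12, -0.36 and -0.67, mean -0.78 ± 0.13, adjusted p = 0.000233) were lower on all arrays. SIC1, the inhibitor of S-phase cyclin kinase, was at -0.64, -0.74, -0.23 and -0.45 with a mean of -0.52 ± 0.092 (adjusted p = 0.000576). HO, the mating-type endonuclease gene expressed in late G1 of mother cells, was at -0.79, -1.07, -0.74 and -1.21 with a mean of -0.96 ± 0.11 (adjusted p = 4.07e-06).

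Other wall genes fell too. DAN1, an anaerobic mannoprotein, was at -0.69, -1.08, -2.03 and -2.03, a mean of -1.46 ± 0.16 (adjusted p = 2.15e-06) or 2.75-fold lower, and it held the lowest ratio of replicates 3 and 4. TIR4, of a related family, was at -0.72, -0.68, -1.68 and -1.61, a mean of -1.17 ± 0.17 (adjusted p = 7.70e-05). CWP1, a major mannoprotein, was at -0.033, -0.17, -1.54 and -1.30, a mean of -0.76 ± 0.084 (adjusted p = 2.57e-06), and PIR1 was at -0.20, -0.56, -0.91 and -0.77, a mean of -0.61 ± 0.16 (adjusted p = 0.0166). In each of these the Cy3-treated arrays lay lower, and the call for PIR1 was lost without replicate 2, 3 or 4. DAN, TIR and PAU genes are near-identical families whose probes may share signal, and the medians of the 16 genes were 0.35 and 0.36 in Cy5 orientation and -0.72 and -0.75 in Cy3 orientation. TIP1, another mannoprotein, rose instead, at 1.93, 1.67, 1.18 and 1.77 with a mean of 1.64 ± 0.15 (adjusted p = 2.48e-07). NCA3, a SUN-family gene, rose as well, at 2.14, 2.14, 0.91 and 0.83 with a mean of 1.51 ± 0.17 (adjusted p = 2.57e-06). Among the 15 leading ORFs in each direction, 3 are known here by ID only: YMR090W at 1.15, 1.81, 1.57 and 1.87 and YCL027C-A at 1.44, 1.89, 1.19 and 1.32 rose, by 1.60 and 1.46, and YMR317W at -0.43, -0.54, -1.33 and -1.82 fell by 1.03. PHO89, the sodium-coupled phosphate transporter, fell by 1.11 ± 0.22 (SE, adjusted p = 0.00214).

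Lipid genes gave a few larger rises. OLE1, the fatty acid desaturase, whose activators are Mga2 and Spt23, was at 0.77, 0.87, 2.38 and 1.89, a mean of 1.48 ± 0.14 (adjusted p = 2.18e-07). The elongase ELO1 was at 1.08, 0.97, 0.28 and 0.29, a mean of 0.65 ± 0.091 (adjusted p = 3.92e-05), and ACB1, the acyl-CoA binding protein, rose by 0.64 ± 0.15 (adjusted p = 0.00711). The fatty acid synthase subunits rose by 0.54 ± 0.077 (adjusted p = 5.44e-05) for FAS2, at 0.59, 0.61, 0.42 and 0.54, and by 0.40 ± 0.11 (adjusted p = 0.0184) for FAS1, at -0.16, 0.013, 0.86 and 0.89. FAS2 was even across orientations and FAS1 was raised only on the Cy3-treated arrays, and FAS1 was not called without replicate 2, 3 or 4. With the acyl-CoA synthetase FAA4 (0.47) these were 6 rises among 19 genes (31.6%, against 6.85% of all ORFs), with 1 fall (5.26%, against 6.05%) and a median of -0.0019. Without a dye term ELO1, FAS1 and FAA4 did not pass. In ergosterol synthesis 6 of 27 genes rose (22.2%). ERG25, a C-4 methyl sterol oxidase, was at 0.77, 0.77, 0.53 and 0.75, a mean of 0.70 ± 0.10 (adjusted p = 5.70e-05), and ERG3, a C-5 desaturase, at 0.49, 0.59, 0.62 and 0.62, a mean of 0.58 ± 0.11 (adjusted p = 0.000901). MGA2 rose by 0.40 ± 0.083 (adjusted p = 0.00327), at -0.48, -0.34, 1.32 and 1.09, its sign following the dye orientation, while SPT23 was at -0.15 (adjusted p = 0.126).

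Zinc and oxygen genes were divided. Of 12 zinc genes 4 rose (33.3%) and 2 fell (16.7%). IZH1, a membrane protein of the adiponectin receptor family, was at 1.18, 0.98, 0.42 and 0.50, a mean of 0.77 ± 0.14 (adjusted p = 0.000504), and IZH2 was at 0.63, 0.50, 0.54 and 0.51, a mean of 0.54 ± 0.13 (adjusted p = 0.00718), not called without replicate 3 or 4. IZH4 was even across the adapted arrays, at 1.32, 1.26, 1.36 and 1.69, but its SE in the fit was 0.46 (mean 1.40, adjusted p = 0.0467), and its call was lost whenever 1 adapted array was left out. The zinc transporters ZRT1 (-0.21, -0.39, -0.65 and -0.73, mean -0.49 ± 0.069, adjusted p = 4.22e-05) and ZRT2 (-0.32, -0.37, -0.47 and -0.87, mean -0.51 ± 0.076, adjusted p = 8.49e-05) were lower on all arrays. Of 27 hypoxic genes 6 rose (22.2%, against 6.85% of all ORFs) and 5 fell (18.5%, against 6.05%), and the array medians of the list changed sign with the dye, at 0.37 and 0.38 in Cy5 orientation and -0.43 and -0.36 in Cy3 orientation. HEM13, a heme synthesis enzyme made when oxygen is low, was at 1.23, 0.70, 0.15 and 0.12, a mean of 0.55 ± 0.15 (adjusted p = 0.0161), and ANB1, the hypoxic form of the elongation factor eIF5A, was at -0.52 (adjusted p = 0.0598). FET4, a low-affinity iron transporter, fell by 0.81 ± 0.19 (SE, adjusted p = 0.00681) but not without replicate 3 or 4, and HEM13 was not called without replicate 1 or 2. ROX1, the repressor of hypoxic genes, was at 0.29, 0.34, -1.37 and -1.28, a mean of -0.50 ± 0.15 (adjusted p = 0.0291), above 0 in Cy5 and far below 0 in Cy3 orientation. It missed the threshold with any adapted array left out.

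Of 30 regulator genes 6 rose (20.0%, against 6.85% of all ORFs) and 3 fell (where 6.05% of all ORFs did), with a median of 0.01. YAP1 was at -0.027, 0.14, 0.50 and 0.18, a mean of 0.20 (adjusted p = 0.117), and did not pass. HSF1, the heat shock activator, rose by 0.27 but in no fit with an adapted array left out. HAP4, an activator of respiration genes, was even at 0.34, 0.38, 0.37 and 0.34, a mean of 0.36 ± 0.091 (adjusted p = 0.0112), but not called without replicate 2. XBP1, a stress-induced repressor, was at 1.21, 1.47, 0.098 and -0.13, a mean of 0.66 ± 0.14 (adjusted p = 0.00311), raised in Cy5 orientation only. STB5, a regulator of NADPH genes, fell by 0.30, and its call was lost with any array left out or with arrays centred on their median. Of 27 genes of the citric acid and glyoxylate cycles 6 rose (22.2%) and 1 fell (3.7%). CIT2, the peroxisomal citrate synthase, stood apart among them, at 0.44, 0.45, 1.89 and 1.47 with a mean of 1.06 ± 0.24 (adjusted p = 0.00476). It was not called without replicate 3.

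Few genes of the translation machinery passed the test. None of the 137 cytosolic ribosomal protein genes with values rose and 4 (2.92%) fell, against 6.05% of all ORFs, and their means ran from -0.43 to 0.36 (median -0.07). Of 73 ribosome biogenesis genes 1 fell (median -0.05), and of 69 mitochondrial ribosomal genes 1 rose (median 0.03). These medians lie between opposite signs by orientation. The biogenesis list was at -0.30 and -0.32 in Cy5 and 0.21 and 0.23 in Cy3 orientation, the mitochondrial list at -0.22 and -0.14 against 0.22 and 0.19, and the large cytosolic subunit at -0.19 and -0.21 against 0.01 and 0.08. The lowest cytosolic ribosomal protein gene was RPL22B, at -0.70, -0.76, 0.021 and -0.27, a mean of -0.43 ± 0.14 (adjusted p = 0.0421). RPS7A was at -0.52, -0.76, -0.17 and -0.099, a mean of -0.39 ± 0.12 (adjusted p = 0.0433). Both calls were lost with arrays centred on their median and without replicate 2, 3 or 4, that of RPL22B also without replicate 1.

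The adapted cells were then set against cells that had received the low dose alone. The sources differ on whether those cells were collected after 45 min or 1 h, and the adapted cells were collected 1 h after their second dose, so the added dose and the longer time since the low dose cannot be told apart. By the contrast of group means, 25 ORFs (0.403% of 6207) were higher after the adapted protocol and 3 (0.0483%) lower, and 607 had an unadjusted p under 0.05. Of the 25, 24 were among the ORFs raised over untreated cells, and 5 had a pretreated mean below 0. On the pretreated arrays replicates 1 and 2 held the treated RNA in Cy3 and replicates 3 and 4 in Cy5. OSI1, the fourth-ranked rise of the adapted group (2.56 ± 0.14, adjusted p = 1.33e-08), gave -0.16, -0.14, 0.91 and 1.08 on the pretreated and 2.55, 3.06, 2.02 and 2.61 on the adapted arrays, with no overlap and a difference of 2.14 ± 0.20, adjusted p = 6.28e-05. TRX2 gave -0.93, -0.59, 0.20 and 0.49 on the pretreated arrays, also without overlap with its adapted values above, a difference of 1.74 ± 0.26, adjusted p = 0.00105. HUG1 gave 1.66, 0.050, 2.73 and 2.73 on the pretreated arrays, all below its adapted arrays, a difference of 1.71 ± 0.38, adjusted p = 0.0387, and its call was lost with any adapted array or with pretreated replicate 1 or 2 left out. TMA10 differed by 1.71 ± 0.30, adjusted p = 0.0067, which was lost without pretreated replicate 1, and TSA2 by 2.21 ± 0.21, adjusted p = 3.28e-06. In TMA10 and TSA2 the groups did not overlap. All 5 of these ORFs were picked as the largest rises over the pretreated group, so their lack of overlap adds no further support.

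The means of PRX1, TSA1 and SOD1 were on opposite sides of 0 in the 2 protocols. PRX1 gave -0.49, -0.74, -0.017 and 0.082 on the pretreated arrays (difference 1.52 ± 0.18, adjusted p = 8.27e-05), and no array reached its adapted values. TSA1 was at -1.23, -1.03, -0.47 and -0.45 on the pretreated arrays and above 0 on each adapted array (difference 1.26 ± 0.16, adjusted p = 8.97e-05), and SOD1 at -1.33, -1.18, -0.32 and -0.31 (difference 1.13 ± 0.20, adjusted p = 0.0067). Lysine and arginine genes were among the 25 as well. LYS20 gave 0.16, 0.097, 0.34 and 0.41 on the pretreated arrays (difference 1.12 ± 0.19, adjusted p = 0.00489), LYS1 gave -0.35, -0.53, 1.15 and 1.15 (difference 1.07 ± 0.19, adjusted p = 0.00813), LYS4 gave -0.13, -0.19, 0.58 and 0.65 (difference 0.73 ± 0.16, adjusted p = 0.0328) and ARG1 gave -0.37, -0.32, 0.52 and 0.49 (difference 1.14 ± 0.22, adjusted p = 0.0159). For LYS20, LYS4 and ARG1 the groups did not overlap, and for LYS1 the highest pretreated arrays reached the lowest adapted ones. The 3 ORFs that were lower were DAN1 at -0.61, -0.42, -0.37 and -0.26 before (difference -1.05 ± 0.22, adjusted p = 0.0336), CWP1 at -0.59, -0.39, 0.24 and 0.27 (difference -0.64 ± 0.12, adjusted p = 0.0111) and ZRT1 at -0.25, -0.12, 0.22 and 0.023 (difference -0.46 ± 0.098, adjusted p = 0.0297). The groups were apart for DAN1 and overlapped for CWP1 and ZRT1. All 3 of these calls were lost without a dye term or without adapted replicate 3 or 4. The count of 28 became 49, 12 and 9 without adapted replicate 1, 3 and 4, and 8 and 11 without pretreated replicate 1 and 2. Genes raised in both protocols such as OLE1 (0.56 ± 0.19, adjusted p = 0.28) and RNR3 (1.11 ± 0.28, adjusted p = 0.0854) did not differ past the threshold.

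The contrast with acute treatment asks how the same high dose differs without the low dose before it. Acute ratios were higher than adapted ones for 1666 ORFs (26.8% of 6212) and lower for 1643 (26.4%), 53.3% in all, where acute treatment on its own raised 33.1% and lowered 35.5% of ORFs and TSA2 reached 6.62. The largest differences on the higher side were in genes of glutathione and peroxiredoxin chemistry and in YNL134C. SRX1 reached 5.58, 5.99, 5.37 and 5.50 on the acute arrays, against adapted values of at most 1.45, a difference of 4.89 ± 0.32, adjusted p = 2.21e-09. GPX2 reached 3.68, 3.43, 4.83 and 4.99, a difference of 4.77 ± 0.27, adjusted p = 7.16e-12, GTT2 differed by 4.37, YNL134C by 4.36 and ECM4 by 4.26. In the other direction MET6 fell to -4.31, -2.97, -3.21 and -3.30, a difference of -3.72 ± 0.21, adjusted p = 8.28e-12. RPS7A gave -3.70, -4.31, -2.84 and -2.56, a difference of -2.96 ± 0.18, adjusted p = 1.17e-11, and 123 of 137 cytosolic ribosomal protein genes were lower in acute cells (median -1.49 against -0.07). MAE1, the malic enzyme, SAM1, the other S-adenosylmethionine synthetase, and PHO3, an acid phosphatase, differed by -2.98, -2.85 and -2.83. No group overlapped the other for any of these genes, but they were picked as the largest differences, so this adds no further support.

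Several responses had opposite signs in the 2 protocols. Of the 426 ORFs raised in adapted cells, 75 also passed this contrast and had an acute mean below 0. Of the 376 lowered in adapted cells, 72 also passed it and had an acute mean above 0. The median acute mean over all ORFs was -0.02. The acute mean itself passed the test in the opposite direction for 53 of the 426 raised and 53 of the 376 lowered ORFs. Acute treatment lowered 35.5% and raised 33.1% of all ORFs, so opposite calls were rarer here than among all ORFs. LYS4 was at -1.64, -1.73, -1.61 and -1.20 on the acute arrays, against 0.69 to 1.14 on the adapted ones (difference -2.50 ± 0.16, adjusted p = 2.19e-11), and LYS9 at -0.70, -0.82, -0.17 and -0.054 (difference -1.73 ± 0.21, adjusted p = 2.87e-07), whereas LYS1 did not differ past the threshold (0.15 ± 0.19, adjusted p = 0.55). Of 10 lysine genes 7 were lower and 2 higher in acute cells. OLE1 gave -0.99, -1.46, -0.036 and 0.32 in acute cells (difference -2.02 ± 0.19, adjusted p = 1.34e-08) and TIP1 gave -0.67, 0.010, -0.33 and -0.54 (difference -2.02 ± 0.22, adjusted p = 7.79e-08). In the reverse direction FET3 gave 1.63, 1.16, 1.03 and 0.96 (difference 2.05 ± 0.21, adjusted p = 3.98e-08), with 22 of 29 iron genes higher in acute cells and 1 lower, and CTS1 gave 0.42, 0.31, 0.029 and 0.26 (difference 1.30 ± 0.17, adjusted p = 1.07e-06). YLR108C, picked after its values were seen, was below 0 on all pretreated and adapted arrays (-1.09, -1.36, -0.89 and -1.11 and -0.78, -0.37, -1.01 and -0.98) and above 0 on all acute ones (2.43, 2.89, 2.02 and 1.85). HUG1 was higher in the adapted cells, its acute arrays at 1.85, 0.76, 1.16 and 1.69 lying below each adapted array (difference -2.14 ± 0.38, adjusted p = 5.26e-05).

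**Figure D5:**
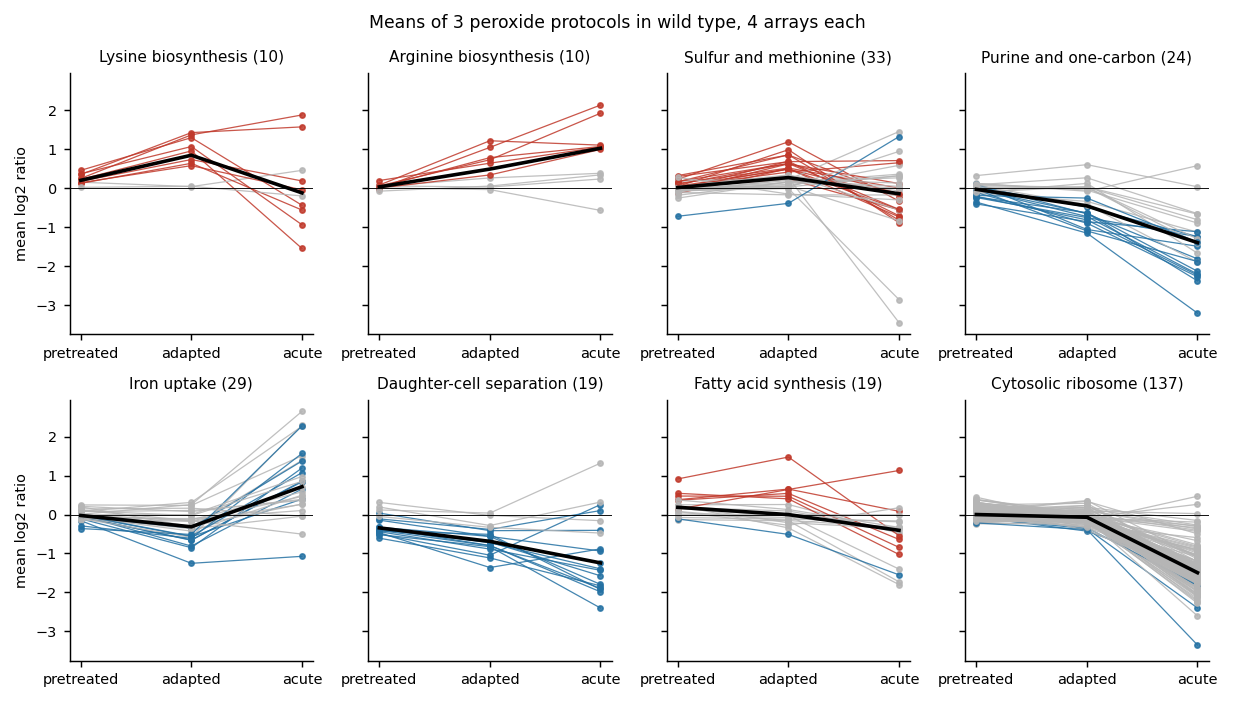
Mean log2 ratios of each gene (thin lines) and list medians (black) after pretreatment, the adapted protocol and acute treatment, for 8 gene lists with the number of measured members in brackets; red genes were raised and blue ones lowered in the adapted protocol. The lysine medians are 0.20, 0.85 and -0.12 and the iron medians -0.02, -0.32 and 0.71, while the purine medians run from -0.03 over -0.45 to -1.40.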

How the data were processed

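Agilent 2-colour whole-genome yeast arrays (24, 4 per group) carried treated and untreated RNA, scanned and quantified with GenePix by the authors. The deposited table holds an intensity per ORF and channel after the authors' background and quantile normalization. How spots were merged per ORF is not given in the sources used here. A second deposited table of 10807 spots holds natural log ratios whose scale and direction no source states and were read from the values themselves. It was converted to log2, centred on each array's median and used only as an alternative.

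Log2 ratios of treated to untreated intensity were computed with no pseudocount or filter for the 6219 of 6251 ORFs with values on the 4 adapted arrays, and 5751 of 6251 IDs matched a RefSeq gene table. One limma 3.58.1 fit (R 4.3.3; Python 3.11.15, pandas 2.3.3, matplotlib 3.10.9) over all 24 arrays estimated each group's mean together with 1 dye effect per ORF for all groups, then eBayes. The adapted mean was tested against 0 and contrasted with pretreated and acute means (two-sided, Benjamini-Hochberg over all ORFs tested, threshold 0.05). Complete ORFs had 17 residual degrees of freedom and the fewest was 2. The median SE was 0.0945, or 0.134 for differences. With 4 arrays a group, their number sets the precision. The error model named in the methods, VERA, was not run.

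The group, gene lists and tests were chosen with earlier results of these data known. Lists overlap in members and are described by counts and medians. Named genes were the 15 largest rises and falls of constant sign, key members of each list with up to 3 further called members, and the 5 largest differences in each direction (only 3 were lower than in the pretreated group). YLR108C was added after its values were seen. In simulated data on 6219 ORFs the adapted test called 9 of 50 changes of 0.25, 44 of 50 of 0.5 and 50 of 50 of 1 and of 2, with 9 false calls among 162, and 0 calls with no change. The simulation had independent noise and 1 dye effect for all groups, as the fit assumes. In the data a dye term per group gave 1726 calls, so these rates may not carry over.

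Alternatives were no dye term, a dye term per group, the 12 wild type arrays, the compared arrays alone, a replicate block, median centring, loess, complete ORFs only, the dimmest 25% of ORFs left out, the table of spots, and each array left out. No sequence or genome position was used here, and some list members are not reported here.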

Additional observations from a re-analysis of the deposited data

Results flagged for a closer look

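Of the 161 genes in the text, 8 had 1 adapted array whose gap to the nearest other array exceeded Dixon's limit for 4 samples. Chance alone marks about 1 in 20 groups, and 3.26% of all ORFs were past the limit here. Replicate 4 stood apart for GCV2 at -1.71, PLM2 at 1.26 and DUN1 at 0.78. Replicate 2 did so for AHP1 at 1.93. Replicate 1 lay low for TSA2 at 3.50, where the other arrays share the ceiling of 3.97, and for HSP26 at 0.89. Replicate 3 stood apart for MTD1 at -0.011 and for ERG25 at 0.53.

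Differences from the pretreated group passed the test of the difference itself in limma for TSA2 (2.21), OSI1 (2.14), TRX2 (1.74), HUG1 (1.71) and TMA10 (1.71), and on the lower side for DAN1 (-1.05), CWP1 (-0.64) and ZRT1 (-0.46). Acute ratios exceeded adapted ones for SRX1 by 4.89, GPX2 by 4.77, GTT2 by 4.37, YNL134C by 4.36 and ECM4 by 4.26. They were lower for MET6 (-3.72), MAE1 (-2.98), RPS7A (-2.96), SAM1 (-2.85) and PHO3 (-2.83). None of these 10 calls was lost in an alternative run.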

How the results depend on the processing

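The count of 802 changed ORFs in the adapted group was 1726 with a dye term per group, 1818 from the 4 arrays alone and 214 without a dye term, and it ranged from 377 to 580 with 1 adapted array left out. The other settings gave 593 to 1169. The 28 ORFs that differed from the pretreated group became 367 with a dye term per group, 1115 from the 8 arrays alone, 11 without a dye term, 9 from the 12 wild type arrays and 8 in the table of spots, and ranged from 8 to 49 with 1 array left out. The 3309 that differed from the acute group became 3997 with a dye term per group and 3787 from the 12 wild type arrays. In the table of 10807 spots the count was 4594, and on the 4373 complete ORFs it was 2584. It was 2168 without a dye term and 2967 to 3321 with 1 array left out. Whether replicate numbers pair the arrays was not settled. Over 60 same-numbered pairs of groups, deviations correlated at -0.263 to 0.463, with 10 over 0.1. The deviations were taken from a mean and a dye term per group. Those of the arrays in an orientation are therefore mirror images, and the pairs repeat each other. With the replicate number as a block the counts were 773, 47 and 3234.

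Of 161 genes in the text (strain markers aside) 132 were called. Of these, 74 lost their call in no alternative run on the ORF table that tested them, and 92 in none but that without a dye term. Not every run tested every gene: that on complete ORFs held 135 of the 161, and that without the dimmest ORFs held 148. None of the called genes changed sign. Only leaving out an adapted array, centring or loess could change a mean, since the other runs on the ORF table keep the same adapted mean. Uncalled genes near 0 did: with 1 array left out TRR1 ranged from -0.15 to 0.040, GLR1 from -0.081 to 0.023, SOD2 from -0.065 to 0.15, HSP104 from -0.021 to 0.38, RPN4 from -0.095 to 0.018 and SAM1 from -0.090 to 0.053, and SAM1 was at 0.0046 with centred arrays and 0.018 with loess. The cause of these changes was not tested. Changes of 0.25 were rarely called in the simulated data, so under its settings smaller differences were mostly not detectable with 4 arrays.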
